A study of Mus musculus with 24 samples.

Results

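The paternally methylated imprinted loci examined here were H19, Igf2, Dlk1, Meg3 and Rasgrf1, 5 mouse genes that sit beside DNA known to carry methylation on the copy inherited from the father. They were chosen by name from knowledge of imprinting and not by a rule on their levels. Earlier results of these data were known when they were chosen. Each locus was taken from 35 kb upstream of the transcription start to the end of the gene, by the curated RefSeq transcripts on mm10. The 5 loci held 259 of the 1005908 tiles of 100 bp that any of the deposited tables lists, and 212 of the 758685 tiles present in all 3 tables. Of these 212 tiles, 26 belonged to H19, 50 to Igf2, 32 to Dlk1, 36 to Meg3 and 68 to Rasgrf1.

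Methylation had been measured by enhanced reduced representation bisulphite sequencing, which reads CpGs near restriction sites and reports the share of reads that kept their cytosine. The 24 libraries came from untreated mice of the inbred C57BL/6J strain aged 24 weeks, with no transgene or deletion in any group. There were 12 liver libraries, from 6 males and 6 females, and 6 libraries each of brain and heart, from 3 males and 3 females. DNA was taken from sections of whole tissue, the caudal left lobe of the liver, a rostral coronal slab of brain and the apex of the heart, so that each level is an average over mixed cell types. The columns of levels are numbered and match no mouse and no gender, so libraries were grouped by tissue only and males were not compared with females. The read depth of a tile is unknown beyond a minimum set by the authors.

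An imprinted gene is expressed mainly from 1 parental copy, and the choice is marked by a control region whose 2 copies differ in methylation. H19 (GeneID 14955) makes a noncoding RNA from the maternal copy, and its upstream control region binds the insulator protein CTCF when unmethylated, which keeps the enhancers shared with Igf2 (GeneID 16002), a fetal growth factor gene, from reaching it. Dlk1 (GeneID 13386), which encodes a transmembrane relative of the Notch ligands, is expressed from the paternal copy, and Meg3 (GeneID 17263), a noncoding RNA also called Gtl2, from the maternal copy of the same domain. Rasgrf1 (GeneID 19417) encodes a guanine nucleotide exchange factor for Ras and is expressed from the paternal copy in the brain, under a methylated region upstream of the gene. Where 1 copy of 2 is methylated in every cell, a level near the middle of the scale follows. The same level also follows when both copies are methylated in part of the cells, and with inbred mice and no reads per allele these cannot be told apart.

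Levels within a tissue were close over all tiles. The correlation between libraries ran from 0.965 to 0.977 in liver, 0.942 to 0.976 in brain and 0.964 to 0.977 in heart. Brain libraries were more spread at some of the loci. Over the 22 tiles in the body of Meg3 their SD was 6.09 points, with 1.72 in liver and 1.58 in heart. Averaged over all tiles, liver stood at 65.3% ± 0.33 (SD, n = 12), brain at 65.2% ± 0.92 (n = 6) and heart at 59.8% ± 0.26 (n = 6). Heart was thus lower at large, and comparisons with heart are read against that. As a check of the tissue labels, the promoter of the fibrinogen gene Fgb was at 23.4% in liver against 82.7% in brain and 76.8% in heart, and that of the cardiac myosin-binding gene Mybpc3 at 55.7% in heart against 94.1% in liver and 91.4% in brain. Only 2 of 6 liver markers and 2 of 6 heart markers were covered. Of the others, the liver marker Apoa2 was low in all tissues (1.74 to 3.09%), and the heart marker Actn2 was lowest in brain, at 1.13% with 2.12% in heart. Of 6 brain marker promoters, all covered, 3 were lowest in brain, and none of these 3 varied by 10 points or more, so that the brain label was not checked by them. The design gives 1 set of libraries per tissue, and tissue and any library batch cannot be told apart.

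The matches of the CTCF core motif upstream of H19 are shown because CTCF binding is what this control region is known for. The motif searched on both strands was CCGCNNGGNGGCAG, the form used for the H19 control region. It occurred 4 times in the 37617 bp of the H19 locus and 0 times in the other 4 loci, and over all tiles of any table it was found in 99, or 0.00984%. Since the pattern was taken for H19, these counts do not show whether the other loci hold CTCF sites of another form. The sequences are read on the minus strand, the strand of H19, with the motif in capitals, and they come from the RefSeq genome GRCm38.p6, the assembly of mm10.
H19 at -2.17 kb, chr7:142580301-142580330: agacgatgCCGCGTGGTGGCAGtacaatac
H19 at -2.62 kb, chr7:142580756-142580785: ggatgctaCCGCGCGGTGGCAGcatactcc
H19 at -3.65 kb, chr7:142581782-142581811: cagggttgCCGCACGGCGGCAGtgaagtct
H19 at -3.89 kb, chr7:142582026-142582055: gggagttgCCGCGTGGTGGCAGcaaaatcg
Only the match at -3.89 kb lay inside a covered tile. The tile nearest to the match at -2.62 kb was 124 bp away, and the tile nearest to that at -3.65 kb was 198 bp away.

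Next are the sequences of the tiles where all 3 tissues were in the middle of the scale and at least 2 tiles in a row were so. CpGs are in capitals, and each sequence is on the strand of its gene. They are shown because the levels given below are those of these tiles. The CpGs are marked from the reference sequence, and which of them were read is unknown.
H19 pair of tiles, -4.05 to -3.85 kb, chr7:142582001-142582200, minus strand: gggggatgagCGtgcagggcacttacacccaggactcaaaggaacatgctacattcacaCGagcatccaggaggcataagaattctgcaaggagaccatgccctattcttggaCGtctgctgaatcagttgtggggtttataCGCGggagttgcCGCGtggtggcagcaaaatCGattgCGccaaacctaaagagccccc
Meg3 pair of tiles at the transcription start, -0.1 to 0.1 kb, chr12:109540901-109541100, plus strand: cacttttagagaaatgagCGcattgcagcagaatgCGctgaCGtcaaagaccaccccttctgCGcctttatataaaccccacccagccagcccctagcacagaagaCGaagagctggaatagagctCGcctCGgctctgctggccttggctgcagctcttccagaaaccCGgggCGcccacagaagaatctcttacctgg
Rasgrf1 stretch, first 3 of its 4 tiles, -31.77 kb onwards, chr9:89878001-89878300, plus strand: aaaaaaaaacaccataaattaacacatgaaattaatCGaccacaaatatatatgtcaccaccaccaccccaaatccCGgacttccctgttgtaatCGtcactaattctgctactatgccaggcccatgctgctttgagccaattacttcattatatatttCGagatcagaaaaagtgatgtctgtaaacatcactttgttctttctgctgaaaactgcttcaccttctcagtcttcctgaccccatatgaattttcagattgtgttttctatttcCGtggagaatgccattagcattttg
The H19 pair held 9 CpGs and the whole CTCF match, the Meg3 pair held 9 CpGs, and the 300 bases of Rasgrf1 held 5. TGCCGC, the motif of the zinc finger protein ZFP57, which guards methylation at imprinted regions, was searched on both strands and occurred in 2.25% of all tiles. In the H19 locus it occurred 7 times, and 4 of these overlapped a CTCF match. The Meg3 locus held 12 matches, 5 of them between -12.7 and -12.55 kb, and the Rasgrf1 locus 14, of which 6 lay between -30.17 and -29.88 kb. No tile covered either of these clusters, and the cluster of Rasgrf1 began 1198 bp beyond the last tile of the stretch shown. Igf2 and Dlk1 held 4 matches each.

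A tile was called half-methylated when its tissue mean was between 35 and 65%. In all 3 tissues at once this held for 24 of the 212 tiles of the 5 loci, or 11.3%, and for 2.95% of all tiles. With limits of 30 to 70% the count was 42, or 19.8% with 6.66% of all tiles, and with 40 to 60% it was 6, or 2.83% with 0.887%. By locus the count was 5 of 26 tiles in H19, 3 of 50 in Igf2, 2 of 32 in Dlk1, 6 of 36 in Meg3 and 8 of 68 in Rasgrf1. Half-methylated tiles thus made up 19.2% of the H19 tiles and 16.7% of those of Meg3, but 6.00% in Igf2 and 6.25% in Dlk1. Upstream of the promoters the share was 13 of 68 tiles, in promoters (1000 bp before to 500 bp after the start) 3 of 24, and in the rest of the genes 8 of 120. None of the 24 promoter tiles belonged to Dlk1. The share of half-methylated tiles is a description and was not tested. Tiles that adjoin are not independent.

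**Figure D1:**
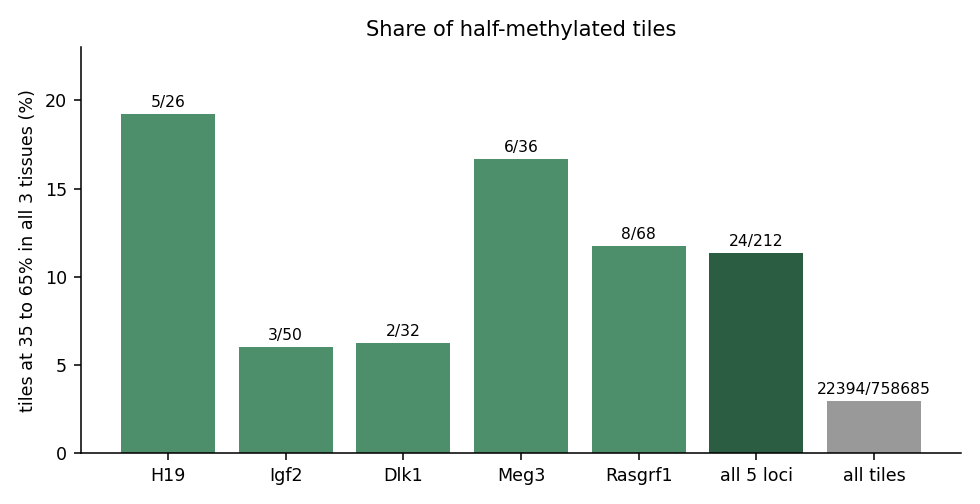
Share of tiles (y axis, percent) whose mean was 35 to 65% in liver, brain and heart at once, for each locus, for the 5 loci together and for all tiles present in the 3 tables; the numbers over the bars give half-methylated tiles over all tiles. H19 stood highest at 19.2% and the bar for all tiles was at 2.95%.

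Within single tissues the limits took in more tiles. In liver 60 of the 212 tiles were half-methylated, with 11.7% over all tiles, in brain 55 with 13.9%, and in heart 58 with 18.2%. The levels of the 24 tiles were also less spread than those of the half-methylated tiles at large. Their median SD over libraries was 7.21 points in liver, 7.19 in brain and 5.17 in heart, whereas all 22394 half-methylated tiles had 8.31, 8.31 and 6.84. Their median largest difference between tissue means was 10.2 points against 14.3. The 24 tiles held from 1 to 7 CpGs with a median of 2.5, and the other 188 tiles of the loci a median of 3. TGCCGC was present in 1 of the 24 tiles and in 8 of the other 188. None of the 24 had 50 or more repeat-masked bases, and 15 of the other 188 had.

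The 35 and 65% limits left some tiles close by. The tile of the 24 with the lowest tissue mean lay at -23.82 kb of Rasgrf1 with 35.1% in heart, and that with the highest at 5.55 kb of Meg3 with 64.6% in heart. Just outside were an H19 tile at -2.9 kb with 34.7% in brain and a Rasgrf1 tile at -3.92 kb with 66.7% in brain. At the ends of the scale, 53 of the 212 tiles were below 10% in all 3 tissues and 32 were above 80%. Of all 758685 tiles, 106630 were below 10% in all 3 tissues and 251412 were above 80%. Of the 53 tiles below 10%, 25 were in Igf2, 15 in Rasgrf1, 12 in Dlk1 and 1 in H19.

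In windows of 500 bp, 108 were covered in all 3 tables and 13 were half-methylated in all 3 tissues. H19 had 4 of its 14 windows, Meg3 4 of 19, Igf2 2 of 22, Dlk1 2 of 20 and Rasgrf1 1 of 33. The same share over all windows is not given here, so these window counts cannot be called high or low. The 5 loci were covered thinly. Tiles took up 8.24% of the H19 locus, 10.8% of Igf2, 9.45% of Dlk1, 7.0% of Meg3 and 5.52% of Rasgrf1, and the longest run without a tile was 10.8, 17.4, 15.6, 13.1 and 23.4 kb in the same order. In Meg3 this run lay from -14.2 to -1.1 kb, in the interval between Dlk1 and Meg3 where the control region of that domain is known to lie.

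**Figure D2:**
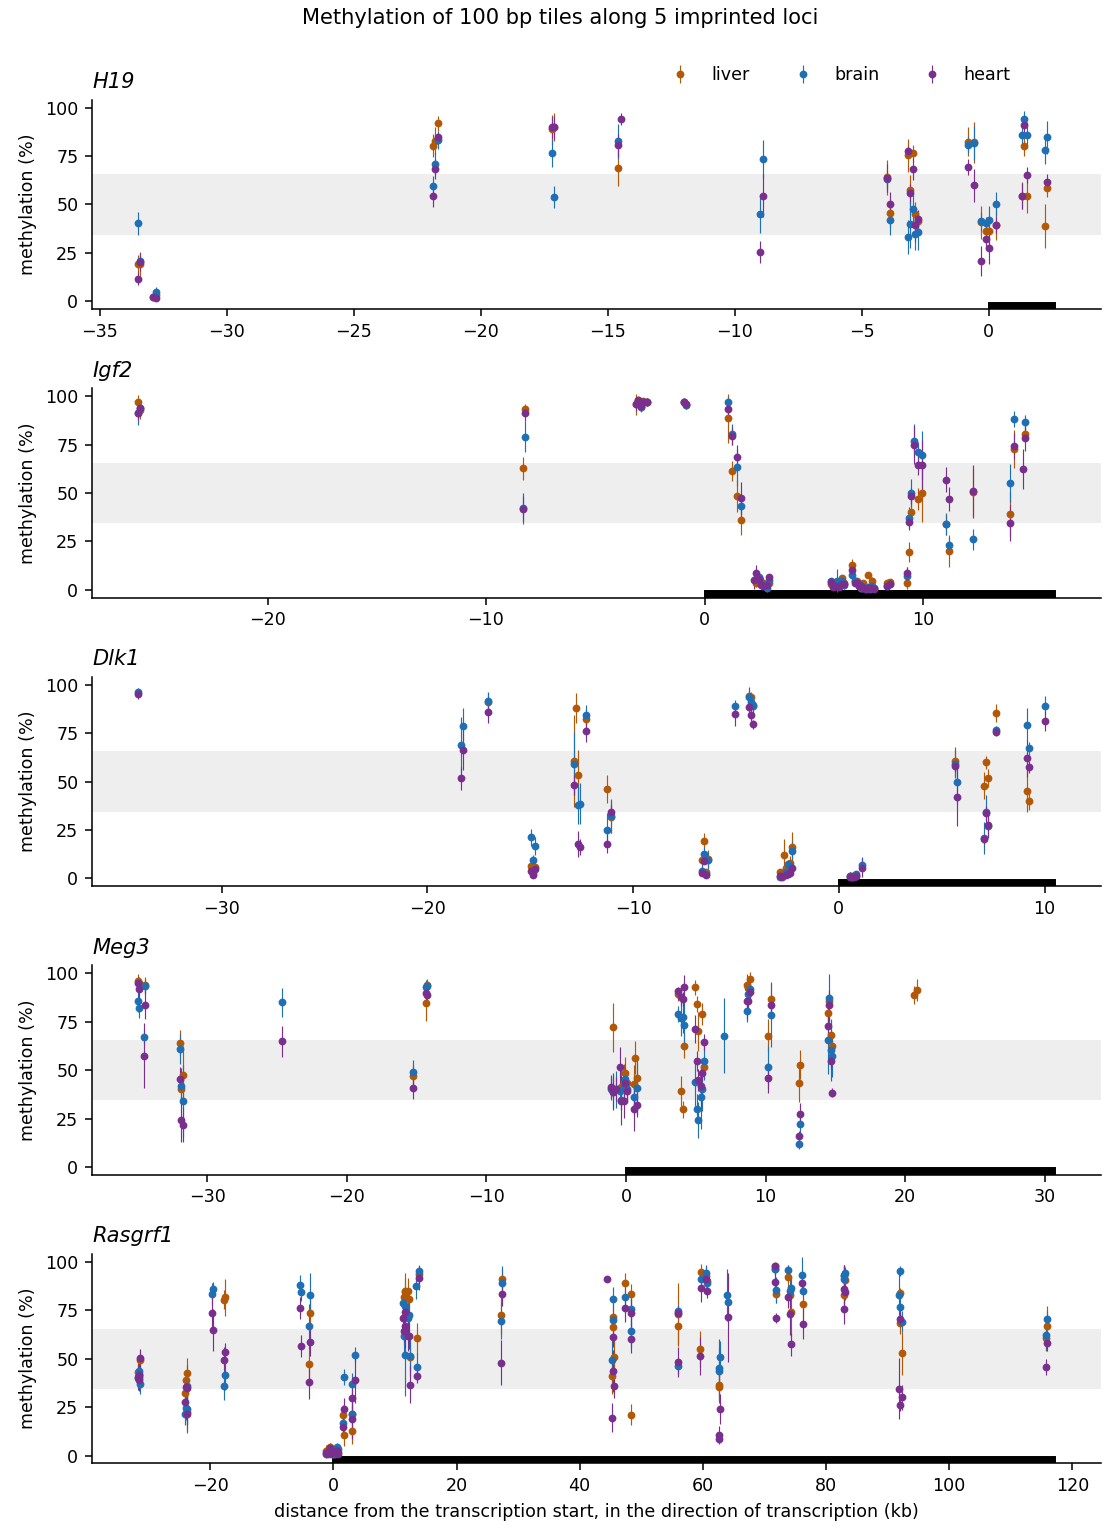
Mean methylation (y axis, percent) of each tile against its distance from the transcription start in the direction of transcription (x axis, kb) at the 5 loci, with bars of 1 SD over 12 liver, 6 brain and 6 heart libraries; the grey band marks 35 to 65% and the black bar the gene. Igf2 shows levels below 10% inside the gene with levels above 90% before its start, and Rasgrf1 a band of tiles near 0 at its promoter.

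At H19, the tiles upstream of the gene centred from -4.0 to -2.8 kb lay among the CTCF matches. The tile at -3.9 kb, with 7 CpGs and the CTCF match, was at 45.6% ± 7.23 (SD, n = 12) in liver, 42.0% ± 7.80 (n = 6) in brain and 50.3% ± 6.25 (n = 6) in heart. Its libraries ran from 35.9 to 56.6% with a median of 46.2% in liver, from 33.7 to 53.7% with a median of 40.1% in brain, and from 41.6 to 58.4% with a median of 49.6% in heart. The groups overlapped throughout, and none of the 3 differences passed the test (limma, adjusted p = 0.46 for liver and brain, 0.29 for liver and heart, 0.10 for brain and heart). The 95% interval of liver minus brain was -3.61 to 10.8 points. Its neighbour at -4.0 kb was at 63.9%, 62.9% and 63.8% in liver, brain and heart, with adjusted p of 0.87 or more.

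Brain was lower than the other tissues in the middle of the same region. At -3.2 kb the level was 75.4% ± 8.50 in liver and 77.6% ± 2.63 in heart but 33.2% ± 8.96 in brain. Brain libraries ran from 21.7 to 43.9% with a median of 32.3%, below every liver library (60.4 to 86.5%, median 77.6%) and every heart library (75 to 82.2%, median 77.4%). Brain was 44.5 points below heart (SE 4.28, adjusted p = 1.8e-08) and 42.2 points below liver (SE 3.71, adjusted p = 1.6e-09). This was the tile of H19 with the largest difference between tissues, and it holds 1 CpG, so that 1 position sets its level.
H19 tile at -3.2 kb, chr7:142581301-142581400, minus strand, CpG in capitals: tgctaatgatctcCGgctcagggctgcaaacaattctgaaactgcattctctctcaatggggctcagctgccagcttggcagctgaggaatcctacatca
The tile at -3.0 kb, with 2 CpGs, gave 76.3% in liver, 47.5% in brain and 68.5% in heart, and there too the brain libraries (36.6 to 58.3%) lay below all others. The tile at -3.1 kb, the one of H19 nearest to 50%, was at 57.3% in liver, 39.7% in brain and 56.1% in heart, with overlapping ranges (liver minus brain 17.5 points, SE 4.19, adjusted p = 0.0016). Over the window from 142581001 to 142581500 the 4 tiles averaged 63.6% ± 3.90 in liver, 38.8% ± 5.66 in brain and 60.4% ± 2.73 in heart. The tile at -2.8 kb, with 5 CpGs, was at 41.7%, 35.6% and 42.6%, and passed no test. No difference between liver and heart was called in these 7 tiles. Further out, at -17.1 kb, brain was again apart, with 53.9% (45.2 to 62.5%, median 54.1%) against 89.9% in liver and 89.8% in heart, whose lowest libraries were at 73.0% and 83.9% (liver minus brain 36.0 points, SE 3.21, adjusted p = 2.1e-09).

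**Figure D3:**
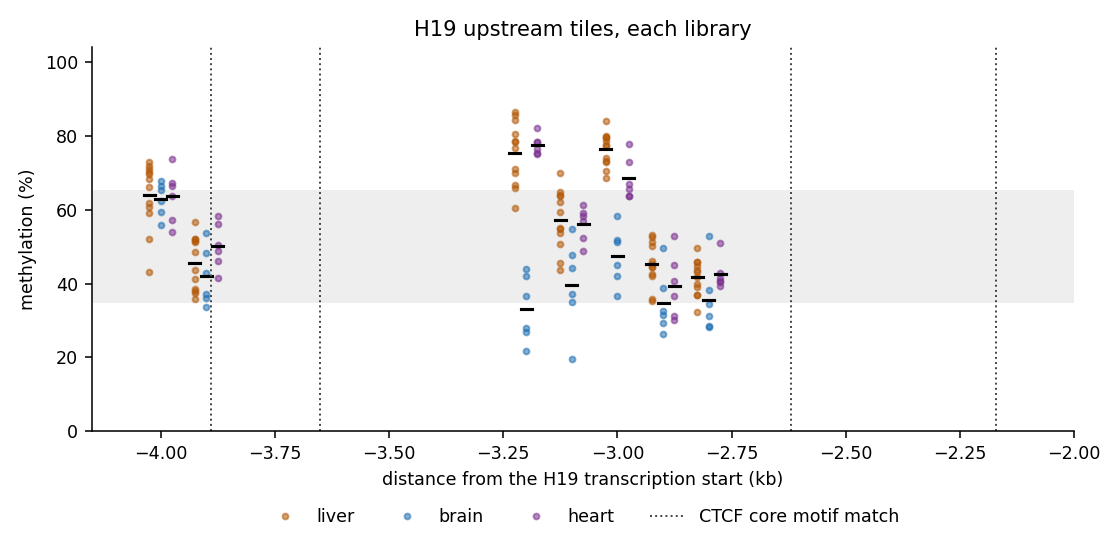
Methylation (y axis, percent) of 7 tiles upstream of H19 in each of the 24 libraries against distance from the transcription start (x axis, kb); bars are tissue means, dotted lines the 4 CTCF core motif matches, and the grey band 35 to 65%. At -3.2 kb the 6 brain libraries lie at 21.7 to 43.9%, apart from liver and heart, whereas at -3.9 kb the 3 tissues overlap.

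Of the 6 tiles of the H19 promoter, 1 was half-methylated in all 3 tissues. The 2 tiles at -0.8 and -0.6 kb averaged 82.2% in liver, 81.3% in brain and 64.5% in heart. From -0.35 to 0.34 kb, 4 tiles with 21 CpGs averaged 38.3% ± 4.83 in liver, 43.4% ± 3.44 in brain and 29.9% ± 5.30 in heart, and they formed half-methylated stretches of at least 3 tiles in liver and in brain taken alone. Heart was the lowest in this stretch. At -0.3 kb heart was at 20.8% with 41.2% in brain (brain minus heart 20.5 points, SE 4.25, adjusted p = 0.00041), and the 6 libraries of each did not overlap. In the body of H19 the order changed, with brain highest. Its 4 tiles averaged 61.8% ± 4.49 in liver, 87.6% ± 4.73 in brain and 68.0% ± 2.70 in heart. The tile at 1.3 kb, with 9 CpGs, was at 54.5% in liver (47.2 to 66.2%, median 50.7%), 85.8% in brain (78.4 to 91.0%, median 85.3%) and 54.3% in heart (44.0 to 62.2%, median 55.0%), and brain lay above all other libraries (liver minus brain -31.3 points, SE 3.13, adjusted p = 1.5e-08).

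Igf2 showed a profile of a different shape. The 2 promoter tiles, at -0.93 and -0.83 kb, averaged 96.3% in liver, 96.1% in brain and 96.6% in heart, and the 8 tiles further upstream 91.6%, 86.5% and 88.1%. Inside the gene, 25 of 40 tiles were below 10% in all 3 tissues. These lay between 2.37 and 9.27 kb, where shorter Igf2 transcripts and the antisense transcript Igf2os begin, and the 11 promoter tiles of Igf2os averaged 4.03% in liver, 2.40% in brain and 2.39% in heart. In 2 of them every liver library lay above all others. At 7.47 kb liver was at 7.77% (5.2 to 10%, median 7.3%) against 1.70% in brain and 1.15% in heart (liver minus heart 6.62 points, SE 0.74, adjusted p = 7.6e-08). At 7.27 kb it was at 3.55% against 0.82% in both (liver minus heart 2.73 points, SE 0.51, adjusted p = 0.00011), and both differences were under the minimum of 10 points. Half-methylated tiles stood at the edges of this low region. At 1.67 kb the tile stood at 36.0% in liver, 43.1% in brain and 47.4% in heart, and at 9.47 kb it was 40.4%, 49.8% and 48.4%. The tile nearest to 50%, at -8.33 kb, was at 62.6% ± 5.90 in liver, 42.2% ± 8.02 in brain and 42.0% ± 6.59 in heart. Its lowest liver library was at 52.2%, above the highest brain library at 47.9% and the highest heart library at 51.9% (liver minus heart 20.7 points, SE 3.21, adjusted p = 1.1e-05).

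Heart was higher than the other tissues at 11.17 and 11.07 kb of Igf2. The tile at 11.17 kb, in a coding exon and in the promoter window of the microRNA gene Mir483, was at 20.1% ± 8.13 in liver, 23.1% ± 4.17 in brain and 46.9% ± 5.95 in heart. Heart libraries ran from 36.8 to 55.1% with a median of 47.7%, above the highest of liver at 33.3% and of brain at 28.6%. Heart was higher than liver by 26.8 points (liver minus heart -26.8, SE 3.33, adjusted p = 4.3e-07), the largest difference of the locus. The next tile, at 11.07 kb, also had heart highest, with 34.0% in liver, 33.9% in brain and 56.8% in heart (adjusted p = 4.5e-07 against liver and 5.2e-06 against brain). Further on this did not hold. In the 500 bp window at 12.07 kb, with 1 tile, heart was at 50.8%, liver at 50.25% and brain at 26.2%. In the window at 14.07 kb heart was at 54.4%, liver at 55.8% and brain at 71.6%. At 9.77 kb liver was the lowest, at 46.7% against 71.2% in brain and 64.4% in heart (adjusted p = 4.7e-08 and 5.9e-06), and its highest library, at 54.3%, was below every library of the other tissues.

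Dlk1 was close to unmethylated shortly after its start, and no tile covered its promoter. The 4 tiles of the gene nearest to the start, from 0.53 to 0.83 kb, were at 2.18% or lower in all 3 tissues. Upstream, 3 tiles from -14.97 to -14.77 kb were low in liver and heart and higher in brain. At -14.97 kb brain was at 21.2% ± 4.43 (17.4 to 28.5%, median 19.8%), with 6.29% ± 1.47 in liver and 3.93% ± 1.49 in heart, and no other library exceeded 8.3% (liver minus brain -14.9 points, SE 1.28, adjusted p = 1.1e-09). Only 2 tiles of the locus were half-methylated in all 3 tissues. One lay in an intron at 5.63 kb, with 60.5% ± 7.47 in liver, 58.9% ± 7.11 in brain and 58.1% ± 3.17 in heart. The other, at -12.87 kb, had means of 60.5%, 59.3% and 48.1%, but its liver libraries ran from 0 to 95.8% with a median of 62.1%. The largest difference of the locus was at -12.67 kb, with 53.5% ± 12.8 in liver, 38.1% ± 10.2 in brain and 17.8% ± 6.82 in heart. There the heart libraries (6.7 to 25.4%, median 17.8%) lay below the lowest of liver at 33.3% and of brain at 26.0% (liver minus heart 35.7 points, SE 5.33, adjusted p = 6.0e-06).

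The last part of Dlk1 differed between liver and the other tissues in both directions. From 6.98 to 7.28 kb, 3 tiles with 20 CpGs in the coding exons averaged 53.2% ± 3.48 in liver, 27.5% ± 7.31 in brain and 27.1% ± 3.00 in heart, which made the stretch half-methylated in liver only by the limits used. Liver libraries were at 49.3 to 59.5%, brain libraries at 17.9 to 39.97% and heart libraries at 24.5 to 32.3%, with no overlap of liver with either. All 3 tiles passed the test against both tissues, by 24.1 to 27.8 points (adjusted p from 9.4e-09 to 2.1e-07). Less than 2 kb on, liver was the lowest. The tile at 9.23 kb, in the last exon and the one of Dlk1 nearest to 50%, was at 40.2% ± 5.04 in liver, 67.1% ± 3.35 in brain and 57.4% ± 3.04 in heart (liver minus brain -27.0 points, SE 2.10, adjusted p = 1.9e-10), and the 3 tissues did not overlap.

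At Meg3, 2 of the 5 promoter tiles were half-methylated in all 3 tissues. The pair of tiles across the transcription start averaged 45.8% ± 7.17 in liver, 42.8% ± 5.66 in brain and 41.4% ± 3.91 in heart. At -0.05 kb the libraries ran from 33.3 to 63.5% with a median of 49.9% in liver, from 38.8 to 54.3% with a median of 44.5% in brain, and from 37.1 to 50.9% with a median of 44.9% in heart. The 3 groups overlapped, and the adjusted p was 0.27 or more for each of the 3 differences. With limits of 30 to 70%, 6 tiles with 27 CpGs from -0.4 to 0.8 kb formed 1 stretch at 44.2% ± 4.67, 39.7% ± 3.28 and 35.5% ± 5.78 in liver, brain and heart. In brain and heart the middle levels reached further upstream. The tile at -0.95 kb, the one of Meg3 nearest to 50% by its mean over tissues, was at 72.0% ± 12.5 in liver but 38.6% ± 8.30 in brain and 38.9% ± 9.34 in heart (liver minus brain 33.5 points, SE 5.26, adjusted p = 1.4e-05). Liver had 1 library at 36.4%, within the range of the other tissues, and a median of 74.0%.

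The next kilobases of Meg3 held the largest tissue difference of the 5 loci, and liver went from lowest to highest 1000 bp further on. The tile at 4.05 kb, close before the start of a shorter RefSeq transcript, was at 29.8% ± 4.44 in liver, 77.2% ± 8.35 in brain and 86.8% ± 3.6 in heart. Liver libraries ran from 23.3 to 36.2% with a median of 30.7%, and the lowest library of the other tissues was at 66.7%. Liver was lower than heart by 57.0 points (liver minus heart -57.0, SE 2.67, adjusted p = 2.9e-14) and lower than brain by 47.4 points (liver minus brain -47.4, SE 2.67, adjusted p = 5.7e-13).
Meg3 tile at 4.05 kb, chr12:109545001-109545100, plus strand, CpGs in capitals: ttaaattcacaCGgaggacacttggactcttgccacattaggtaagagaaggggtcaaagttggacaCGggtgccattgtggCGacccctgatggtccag
The tile before it, at 3.95 kb, had the same order, with 39.2% in liver, 76.7% in brain and 87.5% in heart. At 5.05 kb, with 4 CpGs, liver was the highest, with 84.3% ± 4.10 in liver, 30.1% ± 7.41 in brain and 54.7% ± 5.20 in heart. There the liver libraries (78.0 to 90.6%, median 85.1%) lay above heart (48.4 to 60.4%, median 56.0%), and heart above brain (22.1 to 42.6%, median 28.0%), and all 3 differences passed the test (liver minus brain 54.2 points, SE 2.59, adjusted p = 3.1e-14). The tiles at 4.95, 5.15 and 5.45 kb kept liver highest and brain lowest. Further into the gene, at 12.35 kb, liver was at 43.4%, brain at 11.9% and heart at 15.8% (adjusted p = 1.7e-07 and 1.1e-06 against liver). At 14.75 kb, a half-methylated tile, heart was the lowest, at 38.4% ± 2.52 with 62.4% in liver and 57.5% in brain, and its highest library, at 42.2%, was below every other (liver minus heart 24.0 points, SE 3.58, adjusted p = 6.2e-06).

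**Figure D4:**
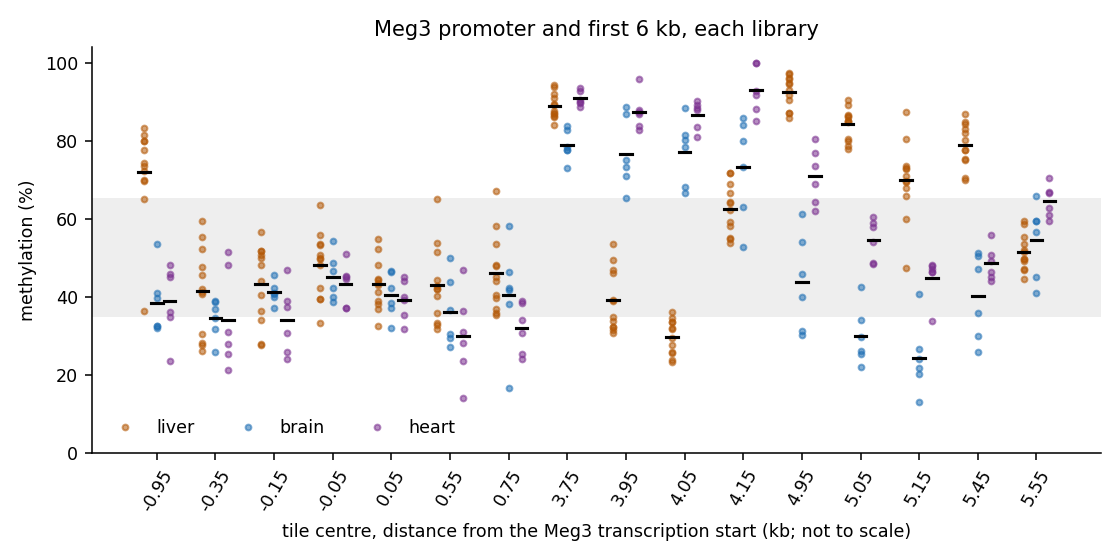
Methylation (y axis, percent) of the 16 tiles of Meg3 from -0.95 to 5.55 kb that all 3 tables hold, in each of the 24 libraries (x axis, tile centre in kb from the transcription start, not to scale); bars are tissue means and the grey band marks 35 to 65%. The tissues overlap around the start, whereas at 4.05 kb liver lies at 23.3 to 36.2% and at 5.05 kb at 78.0 to 90.6%.

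Upstream of Meg3, 2 tiles were half-methylated in all 3 tissues. At -15.25 kb, 1 tile stood at 47.1% ± 5.33 in liver, 49.0% ± 6.04 in brain and 40.7% ± 5.37 in heart. The tiles at -14.35 and -14.25 kb, the last before the long uncovered run, were at 84.9 to 94.1%, and the former holds 1 of the TGCCGC matches. Another half-methylated tile lay at -31.95 kb with 64.2%, 60.9% and 45.6%, where heart was lower than liver (liver minus heart 18.5 points, SE 3.29, adjusted p = 5.7e-05). It adjoined 2 tiles at -31.85 and -31.75 kb with 40.4 and 47.5% in liver, 42.0 and 34.1% in brain and 24.4 and 21.9% in heart, and the 3 tiles together averaged 50.7%, 45.7% and 30.6%. Further out, the 3 tiles from -34.95 to -34.45 kb were at 82.2 to 95.9%.

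Rasgrf1 held the only half-methylated stretch of at least 3 tiles in all 3 tissues at once, in intergenic DNA from -31.77 to -31.38 kb, chr9:89878001-89878400. Its 4 tiles, with 6 CpGs in all, averaged 43.9% ± 3.86 (SD, n = 12) in liver, 40.2% ± 3.99 (n = 6) in brain and 42.8% ± 1.94 (n = 6) in heart. The liver libraries ran from 37.5 to 51.5%, those of brain from 35.1 to 44.6% and those of heart from 39.6 to 45.4%, so that every library was above 35% and below 52%. The 3 tiles printed above were at 41.0 to 43.2% in liver, 40.3 to 43.4% in brain and 39.0 to 41.6% in heart, and none of their 9 differences passed the test (adjusted p of 0.33 or more). The last tile, at -31.42 kb, with 1 CpG, was at 49.4% in liver and 50.3% in heart but 36.9% in brain, and its highest brain library, at 42.6%, was below the lowest of liver at 42.9% (liver minus brain 12.5 points, SE 2.52, adjusted p = 0.00028). The stretch was chosen by its levels, so the levels themselves are no test. The count of 1 stretch depends on the limits: 30 to 70% gave 2 and 40 to 60% gave 0, and without heart library 1 or heart library 4 a second stretch appeared at the Meg3 promoter.

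**Figure D5:**
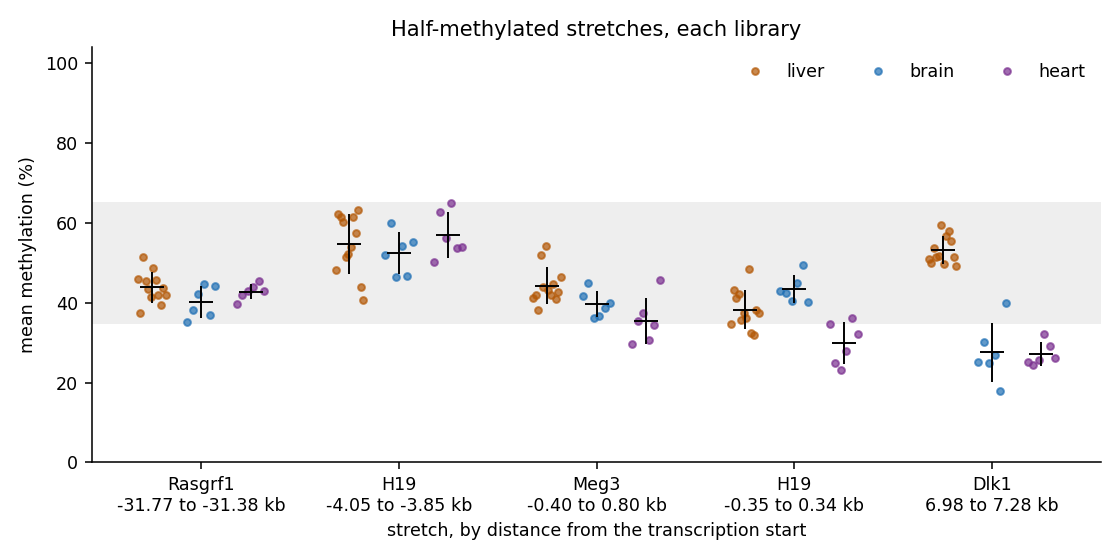
Mean methylation (y axis, percent) over 5 stretches of tiles in each library, with tissue means and bars of 1 SD (12 liver, 6 brain and 6 heart libraries); the x axis names the locus and the distance from its transcription start, and the grey band marks 35 to 65%. At Rasgrf1 the 24 libraries lie between 35.1 and 51.5%, whereas at 6.98 to 7.28 kb of Dlk1 liver is apart from brain and heart.

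Other tiles upstream of Rasgrf1 were lower or differed between tissues. The 4 tiles from -24.02 to -23.72 kb were at 21.3 to 42.8%. At -17.72 kb, in a tile with a TGCCGC match, liver was at 80.5% ± 4.95, brain at 35.7% ± 7.09 and heart at 49.2% ± 6.82 (liver minus brain 44.8 points, SE 2.91, adjusted p = 7.8e-12). Its lowest liver library, at 73.6%, was above the highest of brain at 46.2% and of heart at 58.5%. At -3.92 kb, the tile of Rasgrf1 nearest to 50%, brain was highest with 66.7% ± 11.5, against 47.1% ± 9.61 in liver and 37.8% ± 8.78 in heart (brain minus heart 29.0 points, SE 5.53, adjusted p = 0.00017).

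The Rasgrf1 promoter itself carried little methylation. Its 11 tiles averaged 2.65% ± 0.55 in liver, 1.82% ± 0.39 in brain and 1.95% ± 0.50 in heart, and all 11 were below 10% in the 3 tissues. In the body, 43 tiles averaged 65.6% ± 0.92 in liver, 67.4% ± 2.38 in brain and 55.4% ± 0.97 in heart, so that heart was below the other tissues there, as it was over all tiles. At 91.98 kb, heart was at 26.0% ± 3.07 with 68.2% in liver and 76.7% in brain (brain minus heart 50.8 points, SE 3.5, adjusted p = 9.8e-11), and its highest library, at 29.6%, was below every other. Brain was the highest at 1.68 kb, with 40.4% ± 4.05 against 10.4% ± 5.20 in liver and 24.2% ± 5.52 in heart, and its lowest library, at 35.3%, was above all libraries of the others (liver minus brain -30.1 points, SE 2.46, adjusted p = 4.7e-10).

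Tile by tile, the tissues were compared by limma over all 758685 tiles, with a tile called at an adjusted p under 0.05 and a difference of 10 points or more. Between liver and brain, 68 of the 212 tiles of the 5 loci were called, or 32.1%, and 27.4% of all tiles were. Liver was higher in 40 of the 68, where 14.5% of all tiles were called higher in liver, and brain in 28, where 12.9% were. Between liver and heart, 72 tiles were called with 31.7% over all tiles, of which 54 were higher in liver (25.9% over all tiles) and 18 in heart (5.73%). Brain and heart differed in 61 tiles with 32.1% over all tiles, 41 of them higher in brain (25.8% over all tiles) and 20 in heart (6.23%). The shares called in either direction at the 5 loci, 28.8 to 34% in the 3 comparisons, were thus near those of all tiles. In the order above, the shares by direction were 18.9 and 13.2%, 25.5 and 8.49%, and 19.3 and 9.43%. In windows of 500 bp, the shares in either direction were 39.8, 42.6 and 31.5%, with 28, 33.5 and 35% of all windows. Tiles below 10% in all 3 tissues cannot be called, and they were 53 of the 212 tiles and 106630 of all 758685. The median difference over the 212 tiles was 0.69 points for liver minus brain, 2.65 for liver minus heart and 0.94 for brain minus heart, with 0.28, 3.5 and 3.0 over all tiles.

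The loci were not alike in these counts. In H19, 15 of 26 tiles were called between liver and brain and 14 between brain and heart, but 8 between liver and heart. In Meg3, 16 of 36 were called between liver and brain and 20 between liver and heart, and 9 between brain and heart. Rasgrf1 had 28 of 68 tiles called between brain and heart, 23 of them higher in brain, and 27 between liver and heart, 25 of them higher in liver. In Igf2 10, 8 and 6 of 50 tiles were called for liver and brain, liver and heart, and brain and heart, and in Dlk1 9, 9 and 4 of 32. By counts, H19 had more tiles called in the comparisons with brain, and Meg3 in those with liver; the difference between loci was not tested. At least 1 comparison was called in 105 of the 212 tiles and in 47.2% of all tiles. Among the 24 half-methylated tiles it was 11, or 45.8%, where 63.7% of all 22394 half-methylated tiles were called. Of the 32 tiles above 80% in all 3 tissues 6 were called, or 18.8%, with 9.94% of all such tiles. None of the 53 tiles below 10% could be called, since their differences are under 10 points.

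Promoters of other genes of the same domains were read for the context, from a list of 8. Of these, 4 had tiles in all 3 tables, 26 in number, and Ins2, Nctc1, Rtl1 and Rian had none. Th, the tyrosine hydroxylase gene beyond Ins2, was at 51.5% ± 7.61 in liver, 79.2% ± 3.54 in brain and 52.5% ± 2.87 in heart, and both of its tiles were called against brain (limma, adjusted p from 7.5e-07 to 0.00025 for liver and from 2.3e-06 to 0.0047 for heart). Mirg, a noncoding RNA gene downstream of Meg3, was at 92.1%, 87.5% and 88.8% with no tile called. Dio3, which encodes the deiodinase that inactivates thyroid hormone, was at 4.97%, 2.64% and 3.42%, with 1 of 11 tiles higher in liver than in brain and 1 higher in liver than in heart. Over all tiles these shares were 14.5 and 25.9%, and levels this low leave little room for a difference of 10 points. No covered promoter of the 4 was in the middle of the scale in all 3 tissues.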

How the data were processed

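Enhanced reduced representation bisulphite sequencing was available for 12 liver, 6 brain and 6 heart libraries. A service prepared, sequenced and mapped the libraries by its own methods, and the submitters' processing notes name Bismark, methylKit and mm10. The authors combined calls in tiles of 100 bp, kept those with over 10 reads in all replicates and without extreme depth, and deposited a methylation fraction from 0 to 1 per tile and library, without read counts. Bisulphite does not separate methylcytosine from hydroxymethylcytosine. Columns of levels were assigned to the tissue of their table only, and 0 columns were left out.

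Fractions were multiplied by 100 here. mm10 was checked by the share of tiles with a CpG in the RefSeq sequence, 99.8% against 54.8% for tiles moved along the chromosome. Tissues were compared with limma version 3.58.1 in R 4.3.3 on fractions of all 24 libraries in 1 fit over 758685 tiles, two-sided, with Benjamini-Hochberg adjustment; a tile was called at an adjusted p under 0.05 and a difference of 10 points or more. Half-methylated tiles had tissue means of 35 to 65%, and a stretch was 3 or more such tiles with starts at most 500 bp apart. Libraries of a tissue are from separate mice, but 6 mice gave all 3 tissues and could not be paired. The fit was also run on simulated tiles that took liver means and liver spread for all 3 tissues, with known differences planted in brain. The spread of real brain and heart libraries was not simulated, and the outcome is not given here. The tiles named are, per locus, every stretch, the tile nearest to 50% and the tile with the largest difference; further tiles were named after their values were seen. The Rasgrf1 tile with the largest difference is not reported here. The members and lists were chosen with earlier results of these data known. Alternatives were a logit scale with an offset of 0.01, other limits of difference and level, 500 bp windows, medians and each library left out. Shorter runs, a wider spacing of tiles in a stretch and a range that every library had to meet were also tried. The outcomes of the medians, the wider spacing and the range for every library are not given here.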

Additional observations from a re-analysis of the deposited data

Results flagged for a closer look

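Among 92 sets of 6 brain or heart libraries behind the levels of the loci, their segments, stretches and named tiles, 6 had a library far from the other 5 by Dixon's criterion, and chance gives about 1 in 20. Brain library 5 (a running number of its column) was low at Igf2, with 33.8% over all 50 tiles where the other libraries began at 35.6%, with 81.4% over the 8 upstream tiles where they began at 86.2%, and with 26.7% in the tile at -8.33 kb where they began at 40.8%. The last tile is 1 of the 8, and the 8 belong to the 50, so that these 3 values are not separate. At H19, heart library 2 was at 59.3% over the 16 upstream tiles, with the others at 55.1 to 56.1%, and heart library 1 was at 62.8% over the 4 tiles of the gene, with the others at 68.2 to 70.9%. At 62.53 to 62.83 kb of Rasgrf1, heart library 5 was at 22.1% with the others at 10.5 to 14.2%. The part of read depth in these values was not tested, since it is unknown. The criterion looks for a single library and can miss a pair. At 14.75 kb of Meg3, brain libraries 2 and 6 were at 43.8 and 44.1%, with the others at 59.3 to 68.1%. At chr9:89921401-89921500 in Rasgrf1 they were at 78.4 and 77.8%, with the others at 26.7 to 47.2%. These tiles were picked after their values were seen, and such pairs were not counted or tested.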

How the results depend on the processing

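Among the 5 loci's tiles, the number called was 68 between liver and brain, 72 between liver and heart and 61 between brain and heart. A minimum difference of 25 points gave 25, 21 and 13, with 9.81, 10.8 and 9.48% of all tiles, and windows of 500 bp, which are fewer by construction, gave 43, 46 and 34 of 108, or 39.8, 42.6 and 31.5%, with 28, 33.5 and 35% of all windows. A logit scale and no minimum difference kept each count within 1.5 times. Leaving out 1 library gave 62 to 70, 68 to 76 and 56 to 66. The 24 half-methylated tiles became 42 with limits of 30 to 70% and 6 with 40 to 60%, and 22 to 25 when a library was left out. The 1 stretch in all 3 tissues became 2 with limits of 30 to 70%, 0 with 40 to 60%, and 3 with runs of 2 tiles or more. Chosen after seeing the data, each tissue alone gave 7 stretches in liver, 7 in brain and 5 in heart. Leaving out a library gave 1 to 2 stretches; without heart library 1, or without heart library 4, a second one appeared at the Meg3 promoter, chr12:109540801-109541100. All 10 tile differences picked by the naming rule kept their direction when a library was left out. The logit scale and the other minimum differences used the same differences, so direction could not change there. Over these settings all were called except 2 of them at 25 points. Each was the largest difference of its tile and so was chosen on these data. No paired analysis was possible because the columns carry no mouse number. Without read counts the precision of a single level is unknown, and tiles with 1 CpG rest on 1 position.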

Other observations

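Further neighbours outside the imprinted genes were read at 9 of 10 promoters, with 31 tiles. Mrpl23 and Begain were at 2.22% or lower in each tissue, as were Wdr25, Tmed3 and Morf4l1. Ctsh, a cathepsin gene downstream of Rasgrf1, was at 32.4% ± 1.41 in liver, 35.3% ± 1.12 in brain and 32.8% ± 1.58 in heart, with none of its 3 tiles called in any comparison. Lsp1 was at 94.7%, 96.6% and 76.3%, with its only tile lower in heart (limma, adjusted p = 1.3e-11 against liver and 1.1e-10 against brain). Syt8 was at 74.8%, 95.9% and 83.8%, and Ankrd34c at 17%, 10.98% and 13.1%. In each of the 3 comparisons 2 of the 31 tiles were called. Over all tiles the shares were 27.4% for liver and brain, 31.7% for liver and heart and 32.1% for brain and heart. Promoters at 2.22% or lower leave little room for a difference of 10 points, so the low count is no sign of stability.

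Some tiles of the loci were in the brain and heart tables but not in that of liver. At -9.0 kb of H19, a tile with 1 CpG was at 45.3% ± 10.1 in brain and 25.3% ± 5.70 in heart, and the tile at -8.9 kb was at 73.5% ± 9.67 and 54.6% ± 10.95. At the Meg3 promoter, tiles at -0.75 and -0.45 kb were at 40% and 39.0% in brain and at 40.3% and 51.6% in heart. With the tiles beside them these formed a stretch from -1.09 to -0.4 kb at 39.5% ± 2.95 in brain and 43.1% ± 5.19 in heart. At 91.88 kb of Rasgrf1 a tile absent from the liver table was at 82.6% ± 13.9 in brain and 34.6% ± 15.7 in heart.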
